A study of Caenorhabditis elegans with 4 samples.

Results

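The glutathione S-transferase genes of the nematode Caenorhabditis elegans were followed in 2 strains by RNA-seq of whole young adult animals. All genes whose WormBase public name begins with gst-, gsto- or gstk- were taken as members by their gene identifier, whatever their level. They numbered 49 of the 20535 genes in the files, namely 44 gst genes, 3 gsto genes and 2 gstk genes. The mutant strain, VL1080, carried the allele mccc-1(ww4) on chromosome IV together with wwIs24, an integrated reporter that the labels write as acdh-1p::GFP + unc-119(ed3). The control strain, VL749, carried wwIs24 alone, so both strains held the reporter. The protein made from mccc-1 is part of methylcrotonyl-CoA carboxylase, which uses biotin to carry out a step in the breakdown of leucine. Animals of both strains were arrested for 20 h at the first larval stage, then grown at 20 °C on a lawn of the bacterium Comamonas aquatica DA1877, and collected at 70 h after hatching. Each strain gave 2 libraries, each from a pool of at least 200 animals. The labels call the libraries biological replicates without saying how cultures were kept apart, so p-values speak of the spread among these libraries alone, part of which may be technical.

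Glutathione S-transferases join the tripeptide glutathione to reactive or toxic molecules, which makes these more soluble and marks them for export from the cell. The name covers enzymes of several classes. The cytosolic enzymes, called gst in the worm, include a large nematode group and the zeta class, whose members act in tyrosine breakdown. Omega enzymes, such as those called gsto, carry a cysteine at the active site and act more as reductases. Kappa enzymes, called gstk, sit in mitochondria and peroxisomes. In the worm, many gst genes are read out in the intestine under the transcription factor SKN-1, and gst-4 is widely used as a reporter of oxidative stress.

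Levels are given as FPKM, fragment counts divided by the length of the transcript and by the size of the library, and can therefore be set side by side between genes. A change is the log2 fold change of FPKM + 1, mccc-1(ww4) minus control, from a linear model fitted with limma to the 13091 genes that reached 1 FPKM in 2 or more libraries. A gene was called when its Benjamini-Hochberg adjusted p over all of these was under 0.05. On this scale the change of a low gene is understated. The sources used here give no total depth. Low values of short genes rose in steps, and by these steps 1 FPKM of a transcript of 700 nt rested on about 7.91 to 8.19 fragments. The FPKM of all genes summed to 741399 and 770579 in the mutant libraries and to 786436 and 780720 in the control libraries. The matched markers of intestine, body wall muscle, neurons and germline were all above 1 FPKM in at least 1 library. Of 6 hypodermal markers, the collagen genes dpy-7, rol-6 and bli-1 were at or under 1 FPKM in all 4 libraries. Sperm markers, the 30 major sperm protein genes, differed between the strains. They summed to 2819 and 4312 FPKM in the mutant and to 11034 and 10562 FPKM in the control libraries, and all 28 that were tested were called lower. No marker in the other lists was called. Median log2 fold changes were 0.34 for germline and oocyte, 0.14 for intestine and 0.02 for neurons. They were -0.03 for hypodermis, from only 3 tested genes, and -0.20 for body wall muscle, against 0.05 for all tested genes. An unadjusted limma p under 0.05 was found for 3 of 8 germline and oocyte markers and 1 of 7 intestinal ones. The counts were 1 of 3 tested hypodermal markers, 0 of 6 neuronal and 0 of 6 muscle ones, against 21.6% of all tested genes. In whole animals, fewer cells of a type and less RNA per cell cannot be told apart.

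The kappa-class gene gstk-1 was the one glutathione S-transferase gene, of 37 tested, that passed the test between the strains, and it rose; 8.36% of all tested genes passed it. gstk-1 (WBGene00014251) lies on the forward strand of chromosome II from 9656705 to 9657719 in the WBcel235 annotation, as a protein-coding gene with 1 transcript of 782 nt in 3 exons. Its product is known from work in the worm as the peroxisomal member of the kappa pair, with a part in lipid metabolism. It stood at 111.65 and 109.94 FPKM in the mutant libraries, against 45.90 and 44.40 FPKM in the control libraries. Libraries of one strain lay close together, and every mutant value was above every control value. The means were 110.80 ± 1.21 FPKM in the mutant and 45.15 ± 1.06 FPKM in the control (SD, n = 2 each), a 2.45-fold ratio. The log2 fold change was 1.28 (SE 0.12, 95% interval 0.996 to 1.56, limma adjusted p = 0.00591). By the steps of low values these levels rested on about 987 and 983 fragments in the mutant and 420 and 404 in the control libraries. The annotation holds no other gene over it. The rise kept a log2 fold change of 1.22 to 1.30 in all 12 alternative fits. It was called in 10 of these, and the call was lost when genes were kept from a value above 0 (limma adjusted p = 0.102) or from 0.1 FPKM on (limma adjusted p = 0.0667). The major sperm protein sum moved with strain as well. In the fit without major sperm protein and vitellogenin genes the log2 fold change of gstk-1 was 1.26 (limma adjusted p = 0.00615). The part of a difference in sperm between the strains in this result was not tested.

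The other gene of the kappa pair, gstk-2 (WBGene00017054; chromosome IV, 7240445 to 7242270, reverse strand), encodes the mitochondrial enzyme. It had 3.82 and 4.90 FPKM in the mutant libraries, against 4.36 and 7.11 FPKM in the control libraries, and the strains overlapped. Its log2 fold change was -0.31 with a 95% interval of -0.99 to 0.38 (limma adjusted p = 0.611). The annotation places elo-3 over it on the opposite strand, and the sources used here do not say whether libraries were stranded. The ratio of gstk-1 to gstk-2 within a library was 29.2 and 22.4 in the mutant and 10.5 and 6.24 in the control. The mutant ratios were above the control ones, with an exact permutation p of 0.333 (two-sided), the smallest that 2 against 2 libraries can give.

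**Figure D1:**
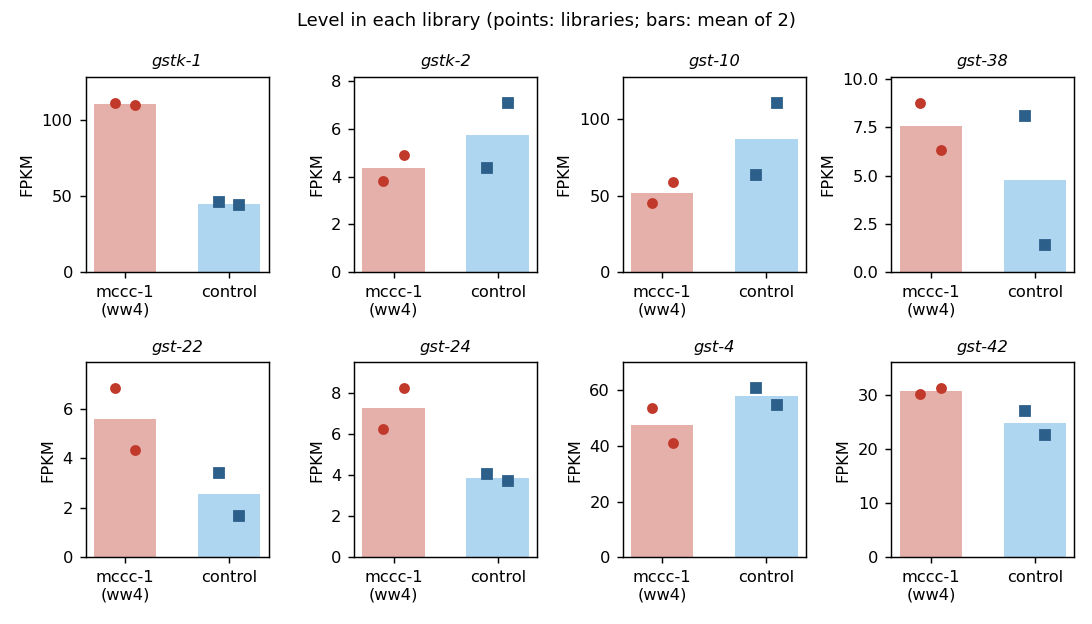
Level in FPKM (vertical axes, each from 0) of 8 genes, with mccc-1(ww4) left and control right; points are libraries and bars are the means of 2. The mutant libraries of gstk-1 sit at 111.65 and 109.94 FPKM, far above the control ones, while the control libraries of gst-38 lie further apart than the strains do.

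Of the 49 members, 37 passed the filter on low values, and of these 1 was called higher, 0 were called lower and 36 did not pass the test. Among all tested genes 1.06% were called higher, 7.30% lower and 8.36% in either direction, beside 2.70% of the tested members, all of it from gstk-1. At an unadjusted p under 0.05 there were 6 members, 3 higher and 3 lower, or 16.2%, against 21.6% of all tested genes. Mutant and control values stood clear of each other for 18 members, 7 higher and 11 lower, or 48.6%, against 52.1% of all tested genes (28.9% higher and 23.2% lower). The median log2 fold change was -0.01 over the tested members and 0.05 over all tested genes. Their median levels were 6.15 and 14.2 FPKM, so these shares compare genes of unlike level. For 32 of the 37 the change was under 1.5-fold either way on the log2(FPKM + 1) scale.

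**Figure D2:**
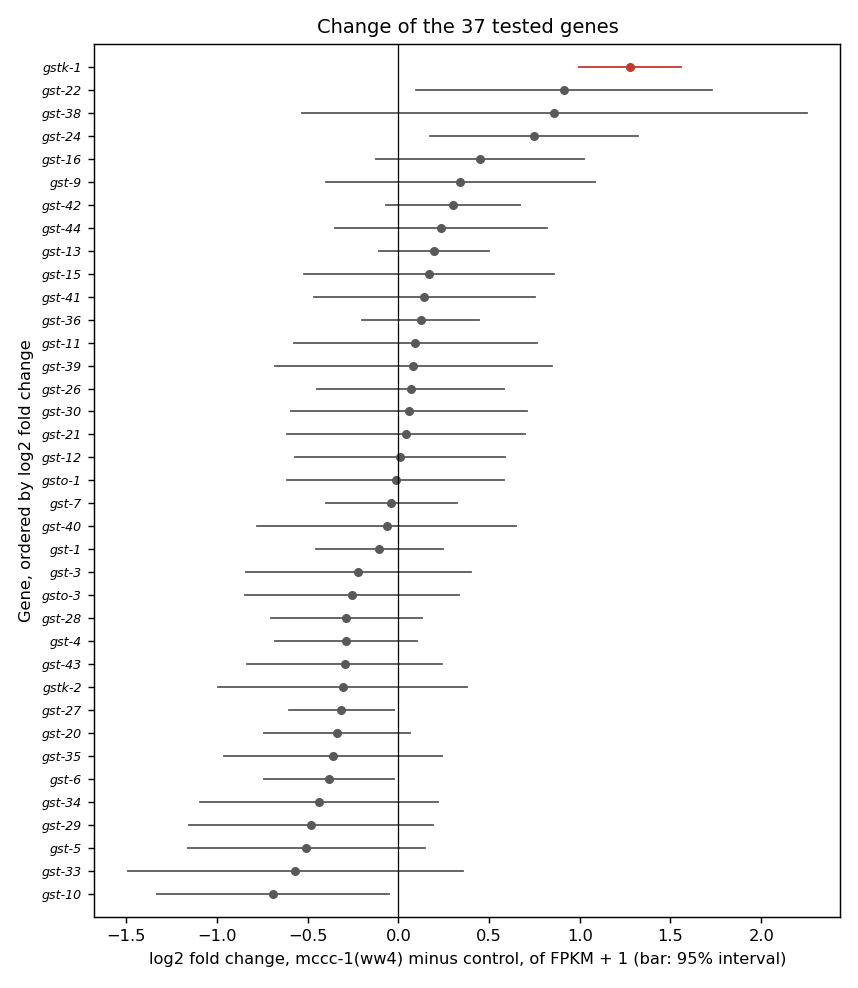
Log2 fold change of FPKM + 1, mccc-1(ww4) minus control (horizontal axis), for the 37 tested members ordered by it, with 95% intervals as bars. gstk-1, in red, is the called one, at 1.28, and the intervals of most of the others cross 0.

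The most abundant members, apart from gstk-1, were gst genes. gst-1 (chromosome III, 9059331 to 9060181), a pi-class enzyme known in worm dopamine neurons, held 26.3% of the summed level of the family. It had 312.31 and 305.69 FPKM in the mutant libraries, against 297.88 and 370.65 FPKM in the control libraries. The mutant values lay within the control range, and the log2 fold change was -0.10 with a 95% interval of -0.46 to 0.25. gst-7, next in level, had 117.40 and 126.87 FPKM in the mutant libraries and 141.69 and 110.88 FPKM in the control libraries, again overlapping (-0.04, 95% interval -0.40 to 0.32). gst-5 had 61.05 and 95.26 FPKM in the mutant libraries and 136.20 and 86.91 FPKM in the control libraries. Both strains spread widely for gst-5, and its change of -0.51 (95% interval -1.16 to 0.14) did not pass the test; nos-1 overlaps it on the opposite strand. After gstk-1, described above, came gst-20, with 62.06 and 62.11 FPKM in the mutant libraries and 92.00 and 67.40 FPKM in the control libraries (log2 fold change -0.34, limma adjusted p = 0.317). gst-36 had 68.47 and 76.29 FPKM in the mutant libraries and 61.95 and 70.96 FPKM in the control libraries, with overlap and a change of 0.12. gst-27 had 53.65 and 55.46 FPKM in the mutant libraries and 69.80 and 66.47 FPKM in the control libraries. It did not overlap between strains, but its change of -0.32 (95% interval -0.60 to -0.03) missed the threshold over all genes (limma adjusted p = 0.192).

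**Figure D3:**
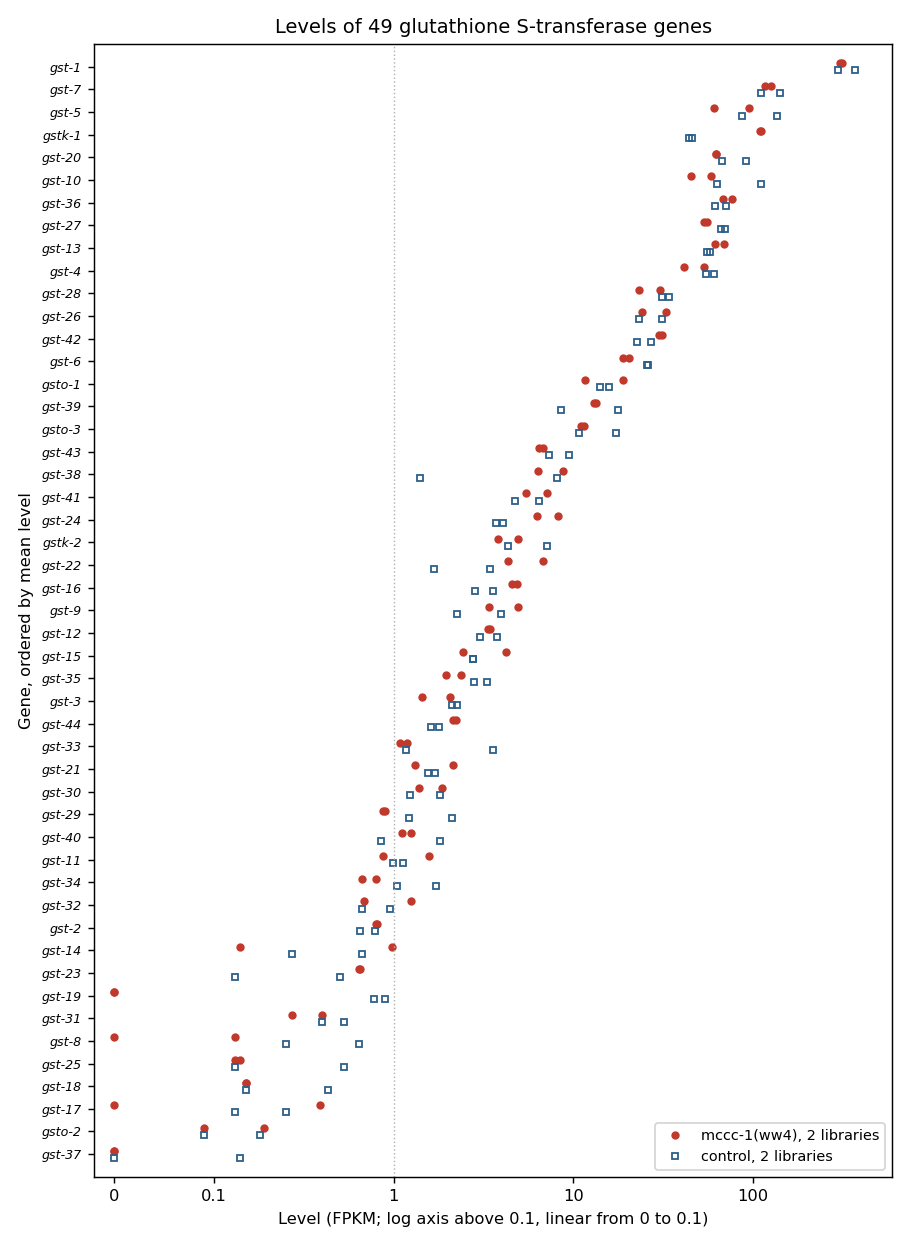
Level of each of the 49 members in each library (horizontal axis, FPKM, logarithmic above 0.1), ordered by mean level, with mccc-1(ww4) as red circles and control as open blue squares; the dotted line marks 1 FPKM. Mean levels run from 322 FPKM for gst-1 down to gst-37, which is listed at 0 in 3 libraries, and the circles of gstk-1 lie clear of its squares.

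gst-4 and gst-10, known from oxidative stress, stood lower in the mutant libraries, and neither passed the test. gst-4 (chromosome IV, 10142225 to 10143099, forward strand), the SKN-1 reporter gene, had 53.69 and 41.21 FPKM in the mutant libraries, against 60.91 and 54.77 FPKM in the control libraries. Its mutant values lay just below the control ones, with a log2 fold change of -0.29 (95% interval -0.68 to 0.10, limma adjusted p = 0.377). The gene lies 255 kb from mccc-1, and dhs-12 overlaps it on the same strand. gst-10 (chromosome V, 2561690 to 2564645), whose enzyme is known in the worm for conjugating the lipid peroxidation product 4-hydroxynonenal, had 45.28 and 58.83 FPKM in the mutant libraries. In the control libraries it had 63.56 and 110.93 FPKM, above the mutant but far apart from each other. Its log2 fold change of -0.69 (SE 0.27, 95% interval -1.33 to -0.05) did not pass (limma adjusted p = 0.196). Without control replicate 1 gst-10 was called lower (log2 fold change -1.09, limma adjusted p = 0.0119), and the adjusted p ran from 0.0119 to 0.684 over its 12 alternatives. The SKN-1 gene itself, skn-1, had 115.52 and 96.88 FPKM in the mutant libraries and 86.16 and 85.71 FPKM in the control libraries, and did not pass (0.30, limma adjusted p = 0.265).

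Several further members had larger changes than most, and none passed. gst-22 had 6.83 and 4.33 FPKM in the mutant libraries, against 3.42 and 1.67 FPKM in the control libraries (log2 fold change 0.91, 95% interval 0.10 to 1.73, limma adjusted p = 0.182). F21H7.12 overlaps gst-22 on the opposite strand. gst-24 had 6.28 and 8.26 FPKM in the mutant libraries and 4.05 and 3.73 FPKM in the control libraries (0.75, 95% interval 0.17 to 1.32, limma adjusted p = 0.126). Mutant libraries stood above control ones for both genes. gst-38 had 8.78 and 6.34 FPKM in the mutant libraries and 8.09 and 1.40 FPKM in the control libraries, so that its change of 0.86 (95% interval -0.53 to 2.25, limma adjusted p = 0.469) turned on which control library was used. Without control replicate 1 gst-38 was called higher (1.82, limma adjusted p = 0.00931), and without control replicate 2 the change was -0.10; its adjusted p ran from 0.00931 to 0.953 over the alternatives. gst-33 had 1.08 and 1.18 FPKM in the mutant libraries and 3.59 and 1.17 FPKM in the control libraries, with control replicate 1 alone standing apart (-0.57, limma adjusted p = 0.471). gst-6 was at 20.42 and 18.91 FPKM in the mutant libraries, below its 26.16 and 25.66 FPKM in the control libraries, with a change of -0.38 (95% interval -0.74 to -0.02, limma adjusted p = 0.201).

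The zeta-class genes gst-42 and gst-43 are predicted to encode maleylacetoacetate isomerase, a late enzyme of tyrosine breakdown. gst-42 (chromosome X, 11726264 to 11727936) had 30.17 and 31.32 FPKM in the mutant libraries, against 27.07 and 22.63 FPKM in the control libraries. It was higher in both mutant libraries by a small step that did not pass (0.30, 95% interval -0.07 to 0.67, limma adjusted p = 0.331). gst-43 had 6.47 and 6.76 FPKM in the mutant libraries and 9.50 and 7.33 FPKM in the control libraries, lower without overlap and likewise not called (-0.30, limma adjusted p = 0.521). Of the 4 other genes of the pathway, 1 rose and 3 did not pass. tatn-1, which encodes tyrosine aminotransferase, the entry step, was at 115.14 and 68.16 FPKM in the mutant libraries, against 45.18 and 28.10 FPKM in the control libraries (1.29, SE 0.30, limma adjusted p = 0.0488). The libraries of each strain differed widely, and the call was lost in 9 of 12 alternatives, with adjusted p from 0.000117 to 0.199; it was 0.155 without mccc-1(ww4) replicate 1 and 0.136 without control replicate 2. hpd-1, hgo-1 and fah-1, which encode further steps of the route, changed by 0.36, -0.51 and -0.20 on the log2 scale, short of the threshold.

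The 3 gsto genes showed no called change. gsto-1 (chromosome III, 7945542 to 7947018), an intestinal enzyme that protects the worm from oxidative stress, had 18.82 and 11.56 FPKM in the mutant libraries and 15.87 and 14.06 FPKM in the control libraries. The control values lay within the mutant range, and the change was -0.01 with a 95% interval of -0.61 to 0.58. kle-2 overlaps gsto-1 on the opposite strand. gsto-3 had 11.54 and 11.07 FPKM in the mutant libraries and 10.80 and 17.23 FPKM in the control libraries (-0.25, 95% interval -0.84 to 0.34). gsto-2 was near the limit of detection, at 0.19 and 0.09 FPKM in the mutant libraries and 0.09 and 0.18 FPKM in the control libraries, and was not tested.

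Chromosome II holds 26 of the 49 members, many of them in groups. Neighbours less than 20 kb apart formed 4 groups. The group at 13608154 to 13630887 holds 9 genes on the reverse strand, gst-20, gst-24, gst-15, gst-14, gst-12, gst-16, gst-19, gst-17 and gst-18. Their levels ranged widely, gst-20 being the abundant one and 4 lying below the filter, and their sum was 81.99 and 81.40 FPKM in the mutant and 107.62 and 81.83 FPKM in the control libraries. Of its 5 tested genes, 4 had a positive change and gst-20 a negative one. The group at 15163817 to 15185389 also holds 9 genes on the reverse strand, gst-26 to gst-29, gst-31, gst-32, gst-34, gst-35 and gst-39. It summed to 119.48 and 137.29 FPKM in the mutant and to 159.99 and 137.53 FPKM in the control libraries, and 5 of its 7 tested genes had a negative change (median -0.32). A group of 4 at 4879891 to 4893573, gst-6 to gst-9, summed to 142.72 and 149.29 FPKM in the mutant and to 170.35 and 141.13 FPKM in the control libraries. The last group, gst-2, gst-3 and gst-4 on chromosome IV, had 56.57 and 43.45 FPKM in the mutant and 63.68 and 57.82 FPKM in the control libraries. No gene of the 4 groups was called, against 8.36% of all tested genes. With 5, 7, 3 and 2 genes tested, in the order given, such a share would give few calls. Over all 37 tested members 18 changes were positive and 19 negative. Genes of a group can be alike in sequence, so fragments may have been split among them by the authors' quantification, and sums are less affected than single values. For 14 members the annotation holds another gene over the same bases. They include gst-9 with msp-33, a gene of the major sperm protein family, and gst-25 with the sperm gene spe-15, each on the opposite strand, and gst-17 with gst-18 on the same strand.

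Summed over all 49 members, the family had 1170 and 1213 FPKM in the mutant libraries, against 1262 and 1244 FPKM in the control libraries. The mutant sums were slightly lower, with means of 1191 ± 30.1 and 1253 ± 12.9 FPKM (SD, n = 2 each), a ratio of 0.951 and an exact permutation p of 0.333 (two-sided), the smallest that the design allows. The FPKM of all genes also summed lower in the mutant libraries. As a share of that total, the family held 0.158% and 0.157% in the mutant and 0.160% and 0.159% in the control libraries. After median-of-ratios scaling the ratio was 0.930, with an exact permutation p of 0.667 (two-sided). gstk-1 made up 9.54% and 9.07% of the sum in the mutant libraries and 3.64% and 3.57% in the control libraries. Without gstk-1 the family summed to 1058 and 1103 FPKM in the mutant and to 1216 and 1199 FPKM in the control libraries, a ratio of 0.895. The 8 most abundant members held 72.8% of the summed level.

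**Figure D4:**
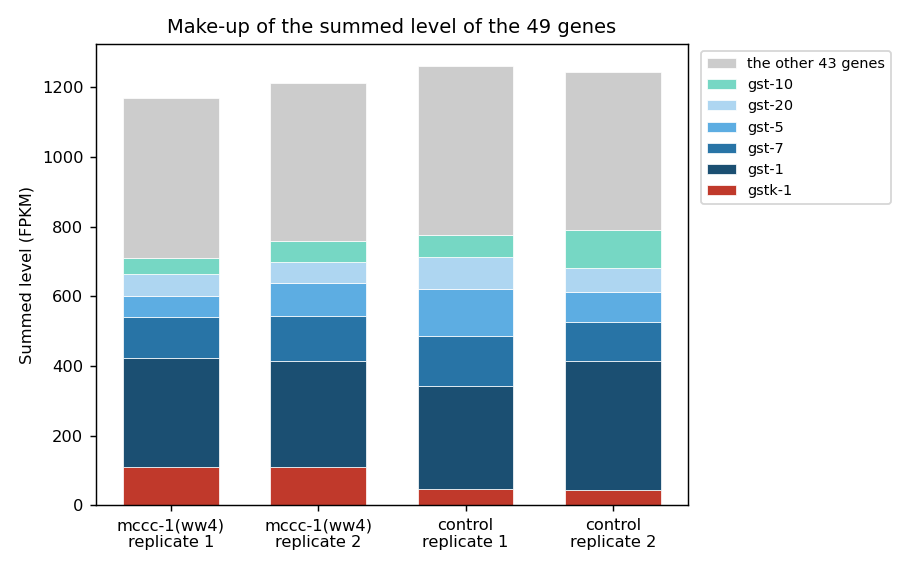
Summed level of the 49 members in each library (vertical axis, FPKM), mccc-1(ww4) left, split into gstk-1 at the bottom, the other 5 most abundant members and the remaining 43. The totals lie between 1170 and 1262 FPKM, and the gstk-1 block is 2.45-fold taller in the mutant, by the means.

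Members differed between libraries of one strain as well. Between the control libraries, 10 of the 37 tested members (27.0%) were at least 1.5-fold apart on FPKM + 1, 6 higher in replicate 1 and 4 in replicate 2, against 12.2% of all tested genes. They were gst-5, gst-9, gst-10, gst-22, gst-33, gst-38, gst-39, gst-40, gsto-3 and gstk-2. gst-39 was an example at a middle level, with 13.40 and 13.09 FPKM in the mutant libraries but 17.86 and 8.6 FPKM in the control libraries. Between the mutant libraries 3 members (8.11%), gst-5, gst-15 and gsto-1, were that far apart, against 11.5% of all tested genes. For 9 of the 10 members the control spread, and not the mutant one, passed 1.5-fold. The median level was 6.15 FPKM over the tested members, against 14.2 FPKM over all tested genes. The part of level in these shares was not tested.

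**Figure D5:**
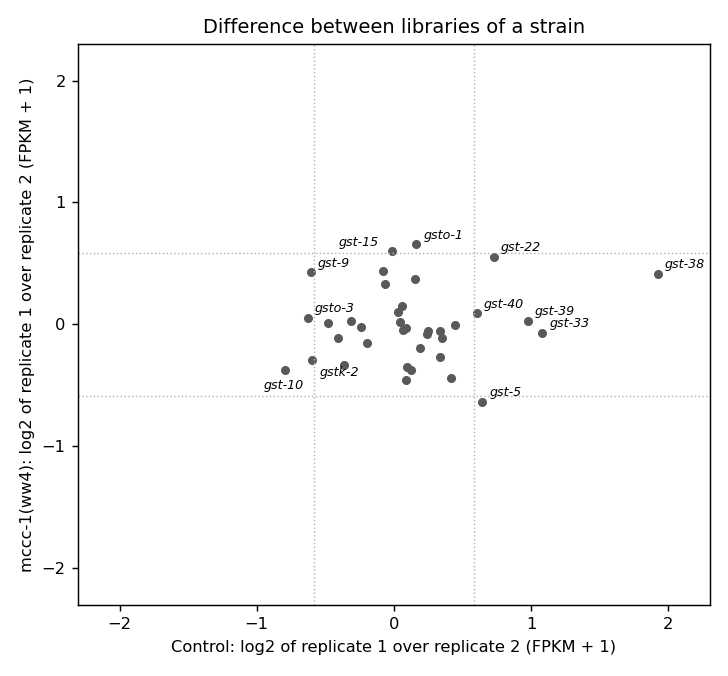
Log2 ratio of replicate 1 to replicate 2 (FPKM + 1) in the control strain (horizontal axis) and in mccc-1(ww4) (vertical axis), each point a tested member; dotted lines mark 1.5-fold. gst-38, gst-33 and gst-39 lie farthest along the control axis, and gst-5 passes 1.5-fold in both strains.

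The 12 members below the filter were gst-2, gst-8, gst-14, gst-17, gst-18, gst-19, gst-23, gst-25, gst-31, gst-32, gst-37 and gsto-2, each with a mean under 1 FPKM. gst-19 was listed at 0 in both mutant libraries and had 0.90 and 0.78 FPKM in the control libraries, about 7 and 6 fragments. gst-8 was listed at 0 in mutant replicate 1 and had 0.13 FPKM in mutant replicate 2, against 0.25 and 0.64 FPKM in the control libraries. None of these members was called by limma in the fits with a minimum of 0.1 FPKM or with none. Each of these fits called 4 of all genes and lost the call of gstk-1, so the lack of a call says little here. Among the low members 1, gst-19, had an unadjusted limma p under 0.05 in each fit. In all, 4 members were listed at 0 in at least 1 library.

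Genes around the transferases were compared in lists. All 4 genes that make or recycle glutathione had a positive change and none passed (median log2 fold change 0.27, against 0.05 for all tested genes). gcs-1, which encodes the catalytic subunit of the rate-limiting ligase and is a classic SKN-1 target, had 76.96 and 64.76 FPKM in the mutant libraries, against 59.16 and 53.06 FPKM in the control libraries (0.33, 95% interval -0.01 to 0.67, limma adjusted p = 0.248). Glutathione reductase, gsr-1, had 119.50 and 116.28 FPKM in the mutant libraries and 118.18 and 107.78 FPKM in the control libraries, which overlapped (0.06). None of 7 tested glutathione peroxidase genes, 5 glutaredoxin genes, 4 gamma-glutamyl transpeptidase genes or 2 glyoxalase genes passed, with medians of 0.04, 0.18, 0.13 and 0.26. The same held for the 8 ABCC exporter genes mrp-1 to mrp-8, whose relatives pump glutathione conjugates from cells (median 0.11), the 7 genes around SKN-1 (median 0.00) and 10 tested genes for other proteins with a transferase-like fold (median -0.08). Over all 9 lists 1 of 51 tested genes, tatn-1, was called by limma, and 8 had an unadjusted p under 0.05. These were 1.96% and 15.7% of the list genes, against 8.36% and 21.6% of all tested genes.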

How the data were processed

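Whole-animal RNA of 2 mccc-1(ww4) and 2 control libraries was measured by RNA-seq. The authors deposited FPKM per gene with 2 decimals, 1 file per library, per the file headers. The submitters' processing notes name Bowtie2 and RSEM. Versions, strandedness, annotation and genome build are not stated in the sources used here. RSEM shares fragments among similar genes by a model, which can move values within this family. Names came from a WormBase identifier table (18776 of 20535 identifiers matched), positions from the WBcel235 annotation.

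From these values, log2(FPKM + 1) was fitted with limma 3.58.1 in R 4.3.3 (group only, mean-variance trend, 2 residual and 4.65 prior degrees of freedom per gene), with Benjamini-Hochberg adjustment over 13091 genes. Sums were compared by exact permutation in Python 3.11.15. The test was checked on simulated data. Filter, pseudocount, members, gene lists, naming rule and step estimate were chosen with earlier results of these data known. Members were given in every library if called, among the 8 most abundant, among the 6 tested with the largest change, or one of gst-4, gst-42, gst-43, gsto-1 to gsto-3, gstk-1 and gstk-2. Others (gst-6, gst-8, gst-19, gst-39, and the uncalled hpd-1, hgo-1 and fah-1) were chosen after their values were seen. The 12 alternatives changed the filter, pseudocount or scaling, used a replicate block, dropped major sperm protein and vitellogenin genes, or left out 1 library.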

Additional observations from a re-analysis of the deposited data

How the results depend on the processing

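The count of members called was 1, with gstk-1 as that member. It was 0 with no filter beyond a value above 0 and with a minimum of 0.1 FPKM, settings in which 4 of all genes were called. Leaving out a library it was 1 to 3, with gst-10 and gst-38 added without control replicate 1, a fit that called 10.5% of all tested genes. Over all genes the count was 1095, and it was 726 after quantile normalization and 393 to 1324 with a library left out. In the pathway lists the count of 1 was 0 with no filter, with a minimum of 0.1 or 5 FPKM and with quantile normalization. It was also 0 with a pseudocount of 0.1, with scaling by median of ratios and without major sperm protein and vitellogenin genes. With a library left out the called list gene was not always tatn-1. The causes were not tested. With the replicate number as a block, members called were 3 (gst-10, gst-22 and gstk-1) and genes in all 1803 (13.8%). The list genes called there were 2, tatn-1 and cdr-1, the latter of the list for a transferase-like fold. The labels do not say that the number marks a batch, so it was not used in the main fit. The replicate differences of the strains correlated at 0.176 across genes. With 2 libraries per strain this value cannot show whether the libraries were paired. The median change of members stayed between -0.11 and 0.03, and that of the family sum was negative in every setting run. The sign of 14 uncalled members turned in at least 1 alternative. The filter and the steps of low values, near 0.122 to 0.126 FPKM for 700 nt, limit what can be said of the 12 lowest members.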

Other observations

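The genes next to gstk-1 on chromosome II were looked at after its rise was seen. ZK1307.1, which lies 1.13 kb upstream on the opposite strand, also rose, with 31.34 and 43.52 FPKM in the mutant libraries and 16.20 and 17.18 FPKM in the control libraries (log2 fold change 1.1, limma adjusted p = 0.0207). ZK1307.3 and ZK1307.4, further along the same side, fell. ZK1307.3 had 3.55 and 7.69 FPKM in the mutant libraries and 21.68 and 21.88 FPKM in the control libraries (-1.86, limma adjusted p = 0.0189). ZK1307.4 had 31.76 and 42.01 FPKM in the mutant libraries and 98.20 and 100.15 FPKM in the control libraries (-1.42, limma adjusted p = 0.00814). On the other side, ZK1320.2 and ZK1320.3, at 0.163 and 1.53 kb, did not pass (0.35 and 0.12, limma adjusted p = 0.217 and 0.650). Also within 6 kb, ZK1307.9 did not pass (0.14, limma adjusted p = 0.624), and ZK1307.2, cyp-13A10 and ZK1320.5 lay below the filter. The rise of gstk-1 was not shared by all genes of its stretch, and a link among their changes was not tested.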
